A study of Mus musculus with 9 samples.

Results

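Ermap, Kel, Xk, Rhag, Rhd, Gypc, Icam4 and Aqp1 encode proteins of the erythroid cell surface, and the human counterparts of all of them carry blood group antigens. They were taken by gene symbol from a table of RNA-seq read counts of mouse bone marrow megakaryocyte-erythroid progenitors (MEPs), where each of the 8 genes had 1 of the 35275 rows. MEPs were sorted as Lin- c-kit+ CD34- FcγRII/III lo cells and then by their binding of HS3A8, a single-chain variable fragment antibody (scFv) that recognises a modification pattern of heparan sulfate (HS). The study split the gate at the middle of HS3A8 binding, with HS3A8-high MEPs above it and HS3A8-low MEPs below, so neither fraction is an extreme tail. MPB49 control MEPs were mock-sorted with an scFv that has no known HS epitope and stand for the whole MEP gate. Each of these 3 groups has 3 libraries, prepared from 25000 sorted cells. Neither strain nor age nor sex of the mice is given in the labels, no genetic change or drug was applied, and all groups share the same gate. The study's figure legend gives individual mice as the replicates, but the labels do not tie a library to an animal, so p-values measure the spread between these libraries.

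On the red cell these proteins sit in complexes at the membrane. Rhag and Rhd form the core of the Rh complex, in which the Rh-associated glycoprotein Rhag is an ammonia channel and Rhd, the mouse counterpart of both human RHD and RHCE, its membrane partner. Kel is a zinc endopeptidase bound through a disulfide bond to Xk, a transporter-like protein of the lipid scramblase family. Gypc, glycophorin C, ties the membrane to the spectrin skeleton through protein 4.1, Aqp1 is the water channel of the red cell, Icam4 is an adhesion molecule and Ermap an immunoglobulin superfamily protein related to the butyrophilins. In erythropoiesis such genes come on progressively as progenitors commit and mature, and GATA1 and KLF1 are the transcription factors best known to drive genes of this kind.

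Of the 8 genes, 7 had counts in all 9 libraries, and Icam4 had none in any. The mean CPM of all 7 was higher in HS3A8-high than in HS3A8-low MEPs, by 6.24% (Kel) to 36.3% (Ermap), but none passed an adjusted p of 0.05 in edgeR's quasi-likelihood test. When the replicate number was entered as a block, Ermap was higher in HS3A8-high MEPs at an adjusted p of 0.0173. No member passed the threshold between either fraction and the MPB49 control.

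Total counts per library ranged from 11781637 to 15850037, and 13936 to 15659 genes had at least 1 count. The most and the least counted of the detected members in a library, Aqp1 and Xk, had 10097 to 24348 and 677 to 2011 counts. A count of 0 allows up to 3 counts, or 0.189 to 0.255 CPM (counts scaled by the library total), a limit for counting error alone since PCR copies of a molecule were not told apart. No library was a copy of another, as the chi-square of any 2 replicates over all genes was at least 9.61 times its degrees of freedom, and 196 times for control replicates 1 and 2. MPB49 control replicate 1 stood apart from the other control replicates in a way that followed gene length. Its log2 CPM differed from their mean by a median of 0.76 for the 1850 genes with under 2000 nt of exon, by -0.00 for 5013 genes of intermediate length and by -0.38 for the 4873 genes with at least 5000 nt. Replicate 3 of both fractions was rich in granulocyte-monocyte transcripts. The summed level of 12 such markers reached 1925 CPM in HS3A8-high and 4892 CPM in HS3A8-low replicate 3, against 94.9 to 190.1 CPM in the control libraries. Values without these libraries are given beside part of the comparisons they enter.

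Erythroid marker genes were read to describe the cells of the gate. All 8 erythroid progenitor markers, among them Gata1, Klf1, Epor and the carbonic anhydrase genes Car1 and Car2, had counts, and their summed level was 13327 to 14299 CPM in HS3A8-high, 10206 to 11489 in HS3A8-low and 11987 to 13195 in control MEPs. Late erythroid markers, mainly globin genes and Alas2, summed to only 138 to 298, 171 to 302 and 129 to 199.6 CPM in the same order. The detected blood group genes were therefore read in cells with abundant progenitor transcripts and few globin transcripts.

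Levels were compared between genes as CPM scaled by TMM (trimmed mean of M-values, which corrects for differences in library composition) and divided by the kilobases of exon of each gene. Aqp1 was the highest with a mean of 467 CPM per kb over the 9 libraries (334 to 589). Rhd followed with 278 (212 to 351), Ermap with 162 (110.0 to 216) and Rhag with 129 (95.9 to 148). Gypc stood at 75.8 (68.8 to 87.0), Kel at 63.6 (52.0 to 73.5) and Xk at 20.9 (12.02 to 25.2). Among neighbours in this order, only the ranges of Rhag and Gypc and those of Kel and Xk did not overlap. The other neighbours, Aqp1 and Rhd, Rhd and Ermap, Ermap and Rhag, and Gypc and Kel, overlapped. The gene placed higher was still the higher one within 8, 9, 8 and 7 of the 9 libraries. Among the genes with counts, ranked by CPM without the length, Aqp1 was at percentile 99.7 and Ermap at 99.4, and the lowest of the 7, Xk, was at 86.5.

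**Figure D1:**
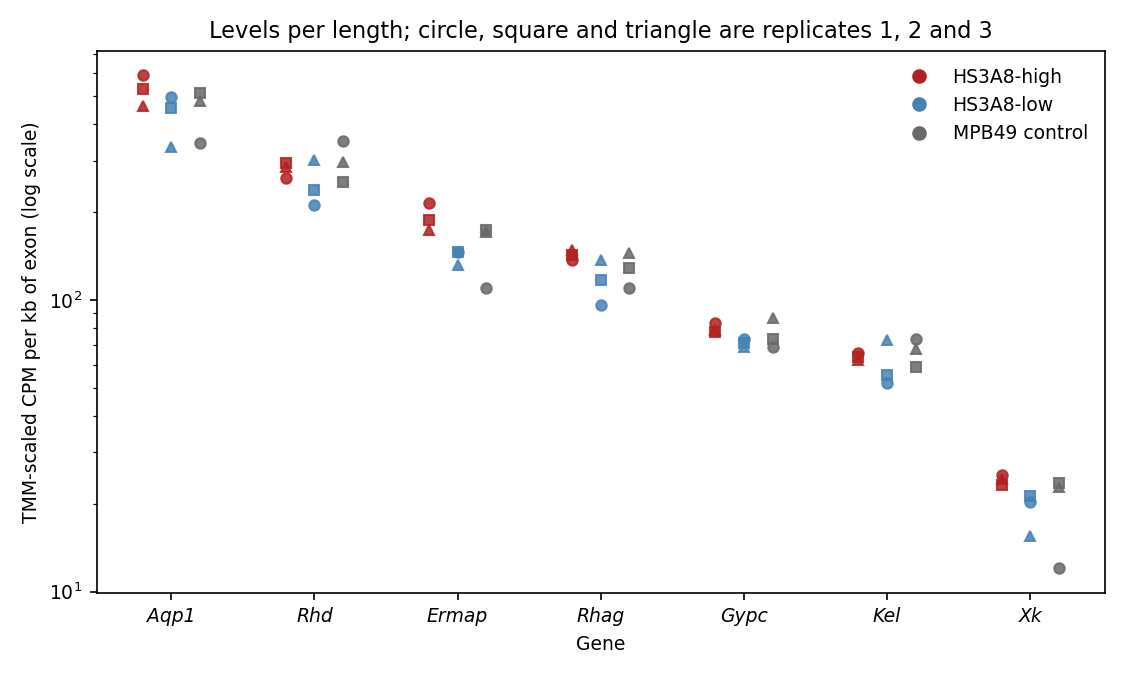
TMM-scaled CPM per kilobase of exon on a log axis for the 7 detected genes, with 1 point per library coloured by group and shaped by replicate number. By group mean Aqp1 lies highest and Xk lowest in every group, with libraries at 334 to 589 and 12.02 to 25.2. In control replicate 1 Rhd (351) lies above Aqp1 (346).

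Ermap (ENSMUSG00000028644) lies on the minus strand of chromosome 4 (GRCm38 chr4:119175457-119190011) and has 5297 nt of exon. It reached 1142, 992 and 921 CPM in HS3A8-high replicates 1 to 3, 776, 771 and 696 in HS3A8-low replicates, and 582, 917 and 903 in the control. Every HS3A8-high library was above every other library, and control replicate 1 was the lowest of all. The log2 fold change between the fractions was 0.41 (95% confidence interval 0.18 to 0.64, standard error 0.0958, edgeR adjusted p = 0.068). With the replicate number as a block the log2 fold change was also 0.41 (standard error 0.0614, 0.26 to 0.56) and the adjusted p = 0.0173 in edgeR. Its adjusted p ran from 0.00322 to 0.263 over 16 alternatives, 5 of which passed the threshold. Within the pairs of the same replicate number the log2 differences were 0.56, 0.36 and 0.41.

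Ermap was among the genes that the study also measured by qRT-PCR, and its primers are shown because they mark which part of the transcript that assay reads.
Ermap forward primer: tgtggtggcgtggaaaatgt
Ermap reverse primer: tgtgtccctaagaggggctat
In GRCm38 the forward primer matched chr4:119188889-119188908 and the reverse primer chr4:119187394-119187414, both in coding sequence, in exons 2 and 4 of the protein-coding transcript Ermap-206, with a product of 181 nt. Both primers matched 7 of the 9 annotated transcripts. The read counts cover the whole gene and do not tell these transcripts apart.

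Aqp1 (ENSMUSG00000004655, chr6:55336432-55348555, plus strand, 2627 nt of exon) was counted at 1548, 1385 and 1212 CPM in the HS3A8-high libraries, at 1308, 1198 and 879 in HS3A8-low and at 910.2, 1346 and 1265 in the control. HS3A8-low replicate 3 and control replicate 1 were the lowest, and the 2 fractions overlapped. The log2 fold change between HS3A8-high and HS3A8-low was 0.26 (standard error 0.158, -0.12 to 0.63, adjusted p = 0.428 by edgeR). Every pair of the same number was higher in HS3A8-high, with log2 differences of 0.24, 0.21 and 0.46, and the blocked test gave 0.27 (standard error 0.0656, 0.11 to 0.43, adjusted p = 0.0522). Single libraries moved the unblocked value, which was 0.17 when replicate 1 of HS3A8-high was left out, and 0.39 and 0.11 when replicates 1 and 3 of HS3A8-low were.

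Gypc (ENSMUSG00000090523, chr18:32528322-32560034, minus strand, 2331 nt of exon) varied least of the 7, with a highest level 1.26 times the lowest. It had 195, 181 and 183 CPM in HS3A8-high, 171, 165 and 160.5 in the HS3A8-low libraries and 161, 171 and 203 in the control. The fractions did not overlap, and the control values ran across both. The log2 fold change between the fractions was 0.13 (standard error 0.0757, -0.05 to 0.31, adjusted p = 0.387 by edgeR), and the pairs gave 0.19, 0.13 and 0.19.

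Rhag (ENSMUSG00000023926, chr17:40811126-40840754, plus strand, 2339 nt of exon) had 320.2, 334 and 346 CPM in HS3A8-high, 224, 275 and 322 in the HS3A8-low libraries and 257, 301 and 338 in the control. HS3A8-low replicate 3 reached the HS3A8-high level, so the fractions overlapped, and HS3A8-low replicate 1 was the lowest library. Between the fractions the log2 fold change was 0.25 (standard error 0.134, -0.07 to 0.57, adjusted p = 0.364 by edgeR). The pairs gave 0.51, 0.28 and 0.10, and leaving out replicates 1 and 3 of HS3A8-low in turn gave 0.14 and 0.39.

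Its partner Rhd (ENSMUSG00000028825, chr4:134864536-134896172, plus strand) has the shortest exon sequence of the 7 detected genes, 1594 nt. Rhd had 418, 471 and 457 CPM in HS3A8-high, 338, 381 and 483 in the HS3A8-low libraries and 559.8, 405 and 474 in the control. The highest library was control replicate 1, where short genes stood high in general, and the second highest was HS3A8-low replicate 3. The log2 fold change between the fractions was 0.13 (standard error 0.138, -0.20 to 0.45, adjusted p = 0.675 by edgeR), with 0.31, 0.30 and -0.08 in the pairs. Leaving out replicates 1 and 3 of HS3A8-low in turn gave 0.04 and 0.29. As a ratio of levels per kb, Rhag over Rhd was 0.522, 0.484 and 0.516 in HS3A8-high, 0.452, 0.491 and 0.454 in the HS3A8-low libraries and 0.313, 0.507 and 0.487 in the control. The ratios of the fractions overlapped, and the only library far from the others was control replicate 1.

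Kel (ENSMUSG00000029866, chr6:41686330-41704339, minus strand, 2773 nt of exon) had 182, 177 and 173 CPM in HS3A8-high, 144, 153 and 203 in the HS3A8-low libraries and 204, 164 and 188 in the control. It was almost level within HS3A8-high and spread widely within HS3A8-low, where replicate 3 exceeded every HS3A8-high library. The log2 fold change between the fractions was 0.05 (standard error 0.138, -0.28 to 0.38, adjusted p = 0.878 by edgeR), and without HS3A8-low replicates 1, 2 and 3 in turn it was -0.02, 0.01 and 0.22. The interval leaves room for a difference of about the size seen for Aqp1 or Rhag.

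Xk (ENSMUSG00000015342, chrX:9272756-9313250, plus strand, 5076 nt of exon) had 128, 118 and 124 CPM in HS3A8-high, 103, 108 and 78.8 in the HS3A8-low libraries and 61.0, 119.6 and 116 in the control. All HS3A8-high libraries were above all HS3A8-low libraries, and control replicate 1 was the lowest of the 9. The log2 fold change between the fractions was 0.31 (standard error 0.129, 0.01 to 0.62, adjusted p = 0.241 by edgeR), and the pairs gave 0.31, 0.13 and 0.65. Without HS3A8-low replicate 3 it was 0.20. Kel over Xk, as a ratio of levels per kb, was 2.60, 2.75 and 2.56 in HS3A8-high, 2.56, 2.60 and 4.71 in the HS3A8-low libraries and 6.11, 2.51 and 2.97 in the control. It was thus far above the others in HS3A8-low replicate 3 and control replicate 1, where Kel was high and Xk low, and 2.51 to 2.97 in the remaining libraries.

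**Figure D2:**
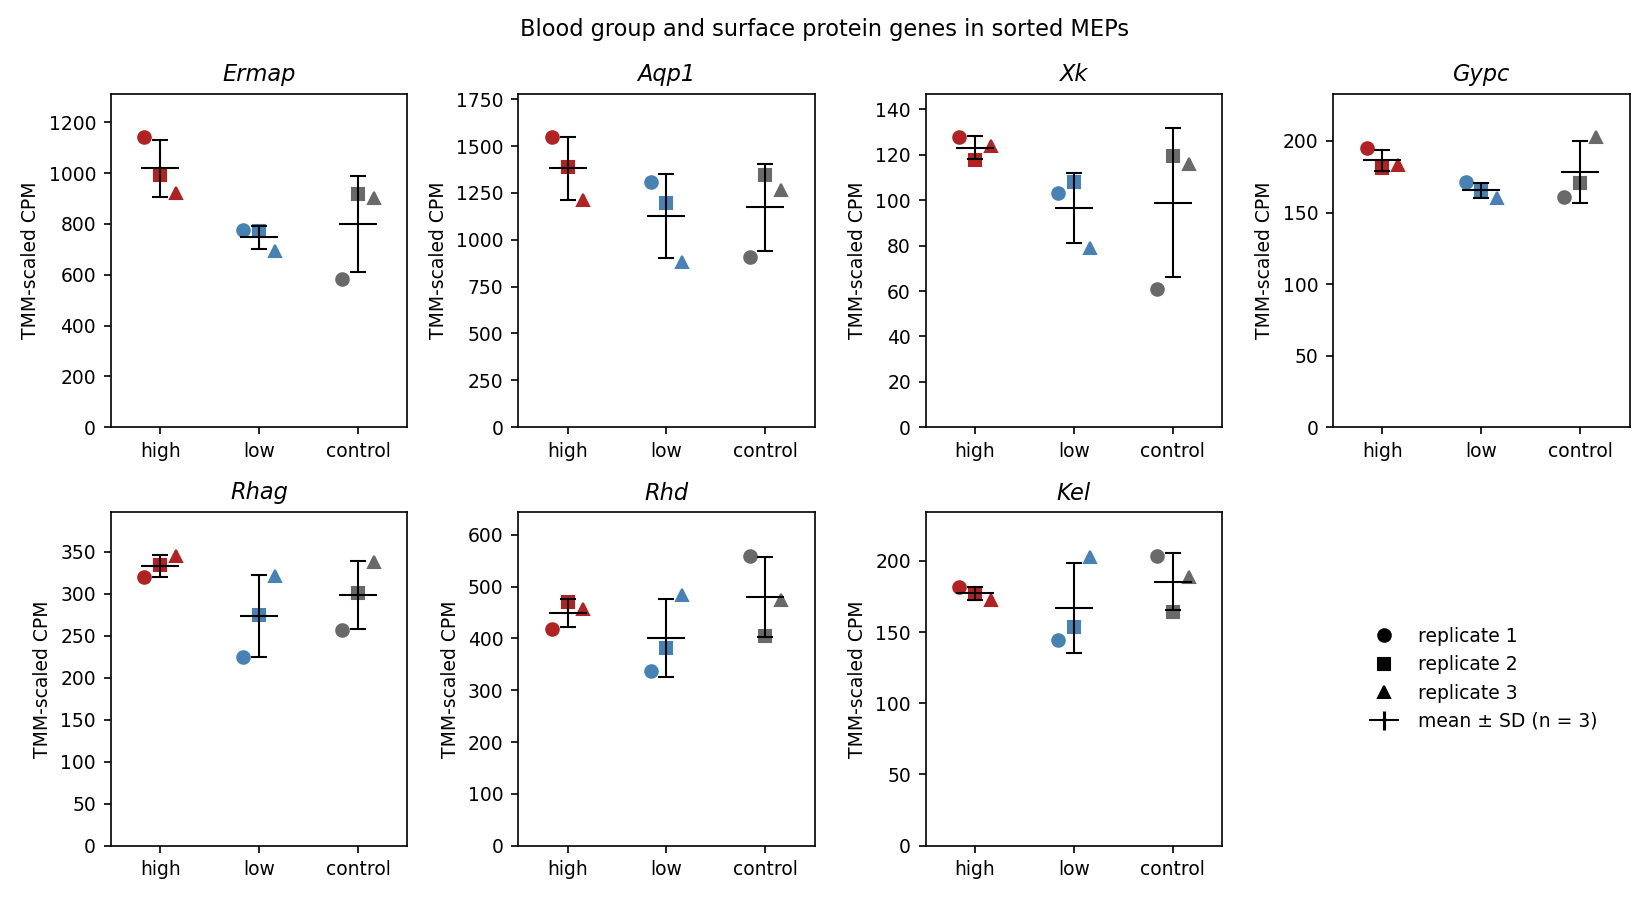
TMM-scaled CPM of each detected gene on axes that start at 0, by group, with symbols for replicate number and lines for the mean ± SD of 3 libraries. HS3A8-high libraries lie above all HS3A8-low libraries for Ermap (921 to 1142 against 696 to 776), Xk and Gypc, and control replicate 1 is the lowest library for Ermap and Xk.

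Icam4 (ENSMUSG00000001014, chr9:21029373-21030595, plus strand, 1110 nt of exon) had 0 counts in all 9 libraries. Every base of its exons is also covered by Gm47079, an antisense gene annotated on the other strand in GENCODE M21. Gm47079 has no row in the count table, although 16617 rows with 0 counts in every library are kept there. Among protein-coding rows whose whole exon sequence is shared with another annotated gene, 80 of 93 (86.0%) were at 0 in all libraries, compared with 5676 of 15110 (37.6%) whose exons share no base. The neighbouring Icam1 and Icam5, of whose exons 11.7% and 30.8% are shared, had 4 to 103 and 0 to 9 counts per library. These overlaps are those of GENCODE M21, and the annotation release and strand setting of the counting are not given in the sources used here. The 0 is therefore a property of the row, and the part of the overlap in it was not tested. None of the other 7 genes shares an exon base with another gene.

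Between HS3A8-high and HS3A8-low MEPs, 0 of the 7 tested members passed the edgeR test, where 451 of 11791 genes (3.82%) did. An unadjusted p under 0.05 was reached by 2 of the 7, Ermap and Xk, against 19.8% of all genes. In the blocked test 1 of 7 passed, Ermap, against 1367 genes (11.6%). DESeq2, the tool named in the study's methods, passed 1 of 7 members and 1305 genes (11.1%), and voom with quality weights 1 of 7 and 1490 genes (12.6%). With each library's trend over GC content and exon length removed, 1 of 7 members and 741 genes (6.28%) passed, and 3 of 7 and 1818 genes (15.4%) when the block was added. The member was Ermap each time, joined by Aqp1 and Rhag in the last of these fits. Without the libraries numbered 3 of both fractions, an alternative chosen after seeing the data, 0 of 7 members passed and the Ermap log2 fold change was 0.45 (adjusted p = 0.0574 by edgeR).

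All 7 log2 fold changes were above 0, as were those of 46.6% of all genes tested. Their median was 0.25, compared with -0.03 over all genes, and 13.6% of all genes had a log2 fold change above this median. The fractions did not overlap for 3 of 7 members, Ermap, Xk and Gypc, a share to be read against 29.5% of all genes. In bulk samples a larger share of cells that express a gene and more RNA per cell cannot be told apart.

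**Figure D3:**
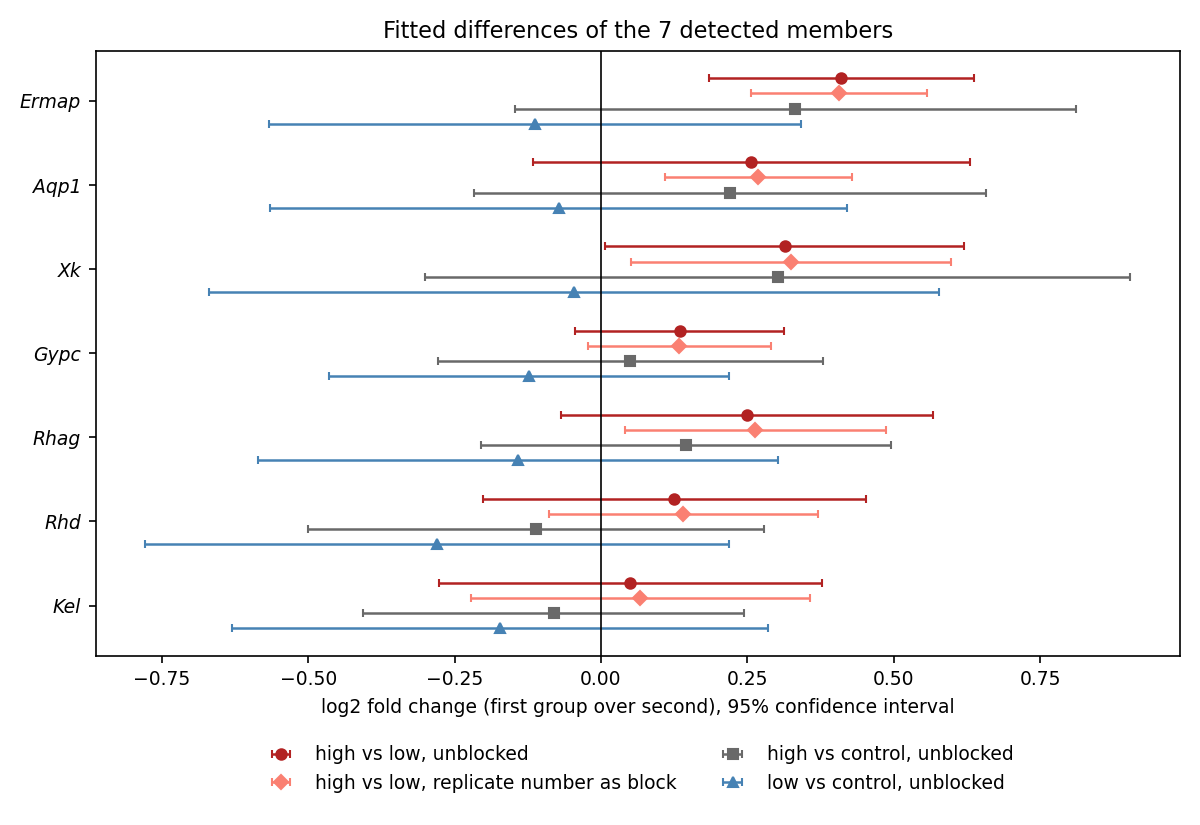
Log2 fold changes with 95% confidence intervals for the 7 detected genes in the 3 comparisons, with the blocked fit added for HS3A8-high against HS3A8-low. The unblocked intervals between the fractions exclude 0 for Ermap (0.18 to 0.64) and Xk (0.01 to 0.62), and all intervals against the control include 0.

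Both comparisons with the MPB49 control share its 3 libraries and so are not independent. Between HS3A8-high and control MEPs, 0 of 7 members and 2 of 11486 genes (0.0174%) passed the edgeR test. No member reached an unadjusted p under 0.05, which 562 genes did, and 138 genes passed by DESeq2 and 100 by voom. Ermap had the largest log2 fold change of the members, 0.33 (standard error 0.203, -0.15 to 0.81, adjusted p = 0.733 by edgeR, 0.496 to 0.989 over 15 alternatives). Xk followed at 0.30, Aqp1 at 0.22, Rhag at 0.15 and Gypc at 0.05, and Kel and Rhd stood at -0.08 and -0.11. All 7 values were closer to 0 without control replicate 1, and Ermap was then at 0.16, Aqp1 at 0.08, Xk and Rhag at 0.06, Rhd at 0.03, Kel at 0.01 and Gypc at -0.00. With all libraries, 5 of 7 were above 0, against 49.7% of all genes. Ermap alone had no overlap between these groups (1 of 7, with 14.4% of all genes).

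Between HS3A8-low and control MEPs, 0 of 7 members and 0 of 11878 genes (0%) passed the edgeR test, and 673 genes, none of them a member, had an unadjusted p under 0.05. DESeq2 passed 94 genes and voom 287. The log2 fold changes of the members were all below 0, whereas 49.7% of all genes were above it, and they ran from -0.28 (Rhd, standard error 0.212, -0.78 to 0.22) to -0.05 (Xk, standard error 0.265, -0.67 to 0.58). No member had groups without overlap (12.7% of all genes had). The sign of the smaller values depended on single libraries, as Xk was at 0.09 without HS3A8-low replicate 3 and Aqp1 at 0.08. Without this library Rhd was at -0.43, Kel at -0.33 and Rhag at -0.27, and without control replicate 1 the 7 values ran from -0.29 (Xk) to -0.08 (Kel).

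The fractions are the upper and lower parts of the gate that the control stands for, so a control mean between them is built into the sort. The mean of the control lay between those of the fractions for 5 of 7 members. The exceptions were Kel and Rhd, whose control means of 185 ± 20.1 and 479 ± 77.6 CPM (SD, n = 3) exceeded both. Control replicate 1 weighed on this. Relative to the mean of the other control replicates, its log2 CPM was -0.95 for Xk, -0.64 for Ermap, -0.52 for Aqp1, -0.31 for Rhag and -0.21 for Gypc, but 0.21 for Kel and 0.35 for Rhd. The members with over 5000 nt of exon, Xk and Ermap, were the lowest here and the shortest, Rhd, the highest. Among the members between them the order did not follow length, as Kel (2773 nt) was at 0.21 and Aqp1 (2627 nt) at -0.52. The part of length in these values was not tested. Without this library the control mean lay between the fractions for 6 of 7 members, Gypc being the exception with 187 CPM in control and 186 in HS3A8-high. The means then were 910.0 CPM for Ermap and 118 for Xk.

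The members did not move together over the 9 libraries. Kel and Rhd were alike over the 9 libraries (Pearson r = 0.92, Spearman rho = 0.95 of log2 CPM), and Rhd was the second most similar gene to Kel among 8352 genes with at least 10 CPM. Without the HS3A8-low libraries 1 and 2, those farthest from the Kel median, r was 0.80. Ermap was alike to Xk (r = 0.92, rho = 0.93) and to Aqp1 (r = 0.89, rho = 0.87), and without HS3A8-low replicate 3 and control replicate 1 these were 0.89 and 0.79. Between these sets the signs were opposite, but this rested on HS3A8-low replicate 3 and control replicate 1. Without these 2 libraries r turned from -0.53 (rho = -0.35) to 0.69 for Xk and Rhd, from -0.23 (rho = -0.25) to 0.78 for Ermap and Kel and from -0.55 (rho = -0.35) to 0.34 for Kel and Aqp1. It was then above 0 for all 21 pairs of members, from 0.05 (Rhd and Aqp1) to 0.96 (Rhag and Rhd). Leaving out the HS3A8-low libraries 1 and 2 instead, Kel and Aqp1 were at -0.77. These are descriptions over libraries that share groups, replicate numbers and the length-related deviation of control replicate 1, and no test was made of these pairs.

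In HS3A8-low replicate 3 the members diverged. Relative to the other HS3A8-low replicates its log2 CPM was 0.45 for Kel, 0.43 for Rhd and 0.37 for Rhag, but -0.51 for Aqp1, -0.42 for Xk, -0.15 for Ermap and -0.07 for Gypc. HS3A8-high replicate 3, also rich in granulocyte-monocyte transcripts, differed in the same measure by -0.27 for Aqp1 and -0.21 for Ermap, by 0.08 for Rhag, 0.04 for Rhd and 0.01 for Xk, and by -0.05 for Kel and -0.04 for Gypc. Aqp1, Ermap and Gypc were thus lower in replicate 3 of both fractions, while Kel, Rhd, Rhag and Xk differed more in that of HS3A8-low. The summed granulocyte-monocyte markers also differed between these libraries, at 1925 CPM in HS3A8-high and 4892 CPM in HS3A8-low. In HS3A8-low replicate 3 short genes were also high, by a median of 0.28, and those of at least 5000 nt low, by -0.18. The part of either in these values was not tested.

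**Figure D4:**
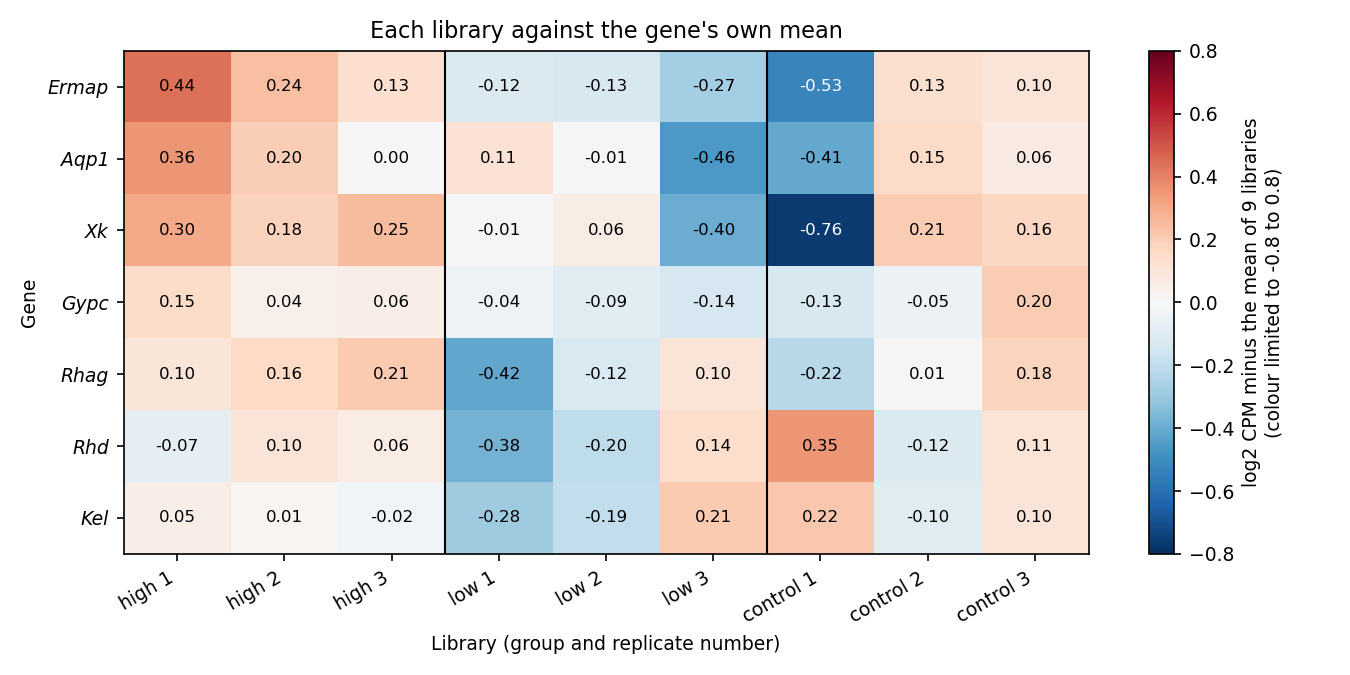
Log2 CPM of each detected gene in each library minus the mean of that gene over the 9 libraries, in colour and in numbers, with lines between the groups. Control replicate 1 is low for Xk (-0.76) and Ermap (-0.53) and high for Rhd (0.35), and HS3A8-low replicate 3 is high for Kel and low for Aqp1 and Xk.

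The genes most like each member over the 9 libraries were Naa25, Nol11 and Net1 for Ermap (r = 0.98 to 0.99), Eif2a, Rhd and Cldn13 for Kel (r = 0.92 to 0.93), and Strbp, Ubqln4 and Naa15 for Xk (r = 0.993 to 0.996). They were Srprb, Tspan33 and Cd24a for Rhag (r = 0.96 to 0.99), Rpl7l1, Cldn13 and Clta for Rhd (r = 0.98 to 0.99), Cenpe, Coq5 and Abcb4 for Gypc (r = 0.94) and, as the 2 most like it, Llgl1 and Focad for Aqp1 (r = 0.98). Cldn13, a claudin, was thus on the lists of both Kel and Rhd. Without the 2 libraries farthest from the median of the member, r of these genes stayed between 0.80 and 0.98.

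Promoter sequences were examined for motifs that the members share. RefSeq entries (GRCm38.p6) were found for 7 of the 8 genes, all but Gypc. In the 250 bases before the start site, a GATA motif (GATA with A or T before it and A or G after it, on either strand) was present in 5 of 7, namely Ermap, Kel, Rhag, Rhd and Icam4, and in 26.5% of 32851 promoters of the same length. The last 100 bases before the start site are shown for the detected members that have the motif, in the direction of transcription, with the motif or its reverse complement in capitals.
Ermap, minus strand, chr4:119189996-119190095: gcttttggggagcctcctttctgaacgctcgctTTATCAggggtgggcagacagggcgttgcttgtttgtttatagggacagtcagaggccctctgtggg
Kel, minus strand, chr6:41704326-41704425: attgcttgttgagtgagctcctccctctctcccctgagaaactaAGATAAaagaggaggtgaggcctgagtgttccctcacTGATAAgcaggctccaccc
Rhag, plus strand, chr17:40811049-40811148: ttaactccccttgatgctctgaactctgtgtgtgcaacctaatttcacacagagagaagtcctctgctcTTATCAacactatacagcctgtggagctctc
Rhd, plus strand, chr4:134864436-134864535: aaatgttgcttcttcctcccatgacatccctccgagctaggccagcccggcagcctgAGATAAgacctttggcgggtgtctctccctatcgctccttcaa
The motif lay at positions -67 to -62 of Ermap, -56 to -51 and -19 to -14 of Kel, -31 to -26 of Rhag and -43 to -38 of Rhd, counted from the RefSeq start site. Of the bases shown, 16 for Ermap, 14 for Kel, 23 for Rhag and 0 for Rhd lie inside the gene as annotated in GENCODE M21. For Aqp1 the first bases after the RefSeq start site were not found in a GENCODE transcript of the gene. The sequence CCNCNCCC, the core of the sites that KLF1 and related factors bind, was found on either strand in 3 of 7 promoters, those of Xk, Aqp1 and Icam4, and in 45.9% of all. Kel and Rhd, which were alike over the 9 libraries, both had the GATA motif, and so did Ermap, whose r with both was negative over the 9 libraries and positive without HS3A8-low replicate 3 and control replicate 1. A match is a description of letters and not a mapped binding site.

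Other genes of the blood group systems, 30 in all, were followed in the same way. Counts were found for 27, and the glycosyltransferase genes Fut1, Fut2 and A4galt were at 0 in all libraries. Of 22 tested between the fractions, 0 were higher and 2 lower in HS3A8-high MEPs. Gcnt2, the I-branching enzyme, was at 4.83, 2.52 and 3.57 CPM in HS3A8-high, at 20.4, 17.6 and 14.9 in the HS3A8-low libraries and at 10.7, 14.5 and 13.4 in the control, and its log2 fold change was -2.30 (edgeR adjusted p = 0.0181, standard error 0.298). Slc44a2, a choline transporter-like protein, was at 54.2, 55.4 and 68.3, then 102, 99.7 and 99.6, then 70.2, 79.9 and 72.3 CPM in the same order, and its log2 fold change was -0.79 (edgeR adjusted p = 0.0253, standard error 0.116). In both genes the control lay between the fractions in every library. The blocked test passed 1 higher gene, the mechanosensitive channel Piezo1, and 3 lower genes, the third being Cd59a, which were named after their values were seen. The median log2 fold change of the 22 was -0.08.

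Partners of the members in the membrane complexes and the skeleton showed no call in the main test (0 of 14), and their median log2 fold change was 0.08. The 3 with the highest counts were Stom, Cd47 and Add1. Stomatin was at 565 to 613 CPM in HS3A8-high and 529.5 to 537 in HS3A8-low. Cd47, which associates with the Rh complex, was at 481 to 516 and 545 to 609, lower in HS3A8-high in every pair (log2 fold change -0.24, standard error 0.0747, adjusted p = 0.138 by edgeR, 0.0522 blocked). In the blocked test 2 of 14 passed, both higher in HS3A8-high and both named after their values were seen. These were the adductin gene Add2 (log2 fold change 0.40, adjusted p = 0.0229 by the blocked edgeR test) and ankyrin-1, Ank1 (0.42, 0.0487). With GC and length trends removed Cd47 alone of the partners passed, as lower in HS3A8-high. When the block was added to that fit, Cd47 passed as lower and Add2 as higher. Band 3, Slc4a1, which anchors the Rh complex in the mature red cell, had only 1.72 to 8.99 CPM over the 9 libraries. RNA levels of these genes were therefore uneven in MEPs, with Rhag and Rhd at 224 to 346 and 338 to 559.8 CPM beside a band 3 gene at no more than 8.99 CPM. These CPM are not divided by exon length, and no protein or complex was measured here.

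Relatives of the members within their gene families were mostly low. Of 30, 1 (Rhbg) had no row, 8 were at 0 in all libraries and 8 could be tested, with 0 calls in the main test. Those with the highest mean CPM were Aqp9 (118 to 164 in HS3A8-high, 92.2 to 154 in HS3A8-low), Icam2 (44.4 to 51.9 and 49.7 to 64.1) and Ece2 (36.8 to 49.9 and 37.4 to 38.5). The Rh relative Rhcg had 1 count in all. Icam1 was lower in HS3A8-high in the blocked test (log2 fold change -2.67, adjusted p = 0.0352 by edgeR) at 0.305 to 1.92 against 4.83 to 7.34 CPM, and was likewise named after its values were seen.

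Markers of the lineages in and around the gate moved with the fractions and are given beside the members. Of 8 erythroid progenitor markers, 1 passed as higher in HS3A8-high, Car1 (log2 fold change 0.36, standard error 0.0545, adjusted p = 0.0257 by edgeR), all 8 were above 0 and their median was 0.28, close to the 0.25 of the blood group members. The blocked test added Car2 and Klf1. Of the late erythroid markers 0 of 8 passed and all were below 0, with a median of -0.19. Megakaryocyte markers were lower in HS3A8-high for 4 of 10 tested (Itga2b, Pf4, Cd9 and Treml1), and the list summed to 83.1 to 120.0 CPM against 243 to 436 in HS3A8-low. Of these 10, 9 had a log2 fold change below 0, among them Gp5 at only -0.14, and Gp1ba was at 0.04. Over all genes 3.21% passed as lower. Lower as well were 3 of 9 stem and multipotent progenitor markers (Hlf, Meis1 and Mycn) and 2 of 8 lymphoid markers (Nkg7 and Trbc1). So were 4 of 6 endothelial markers (Emcn, Pecam1, Tek and Tie1), while the other 2 tested, Plvap and Egfl7, had log2 fold changes of 0.13 and 0.19. The call of Emcn rested on a low level, 0 CPM in every HS3A8-high library and 0.707 to 1.06 in HS3A8-low. Emcn did not pass the blocked edgeR test (adjusted p = 0.0531). Of the granulocyte-monocyte markers 0 of 9 passed, and of the basophil and mast cell markers 0 of 3. In the blocked edgeR test 7 megakaryocyte, 6 stem and multipotent progenitor, 5 lymphoid, 3 endothelial, 5 granulocyte-monocyte and 1 basophil and mast cell markers were lower in HS3A8-high. Without the libraries numbered 3 of both fractions 4 granulocyte-monocyte markers and 1 of the basophil and mast cell list were lower. Pax5 and Cdh5 were at 0 in all libraries. Summed levels of the stem, lymphoid and endothelial lists were 48.8 to 71.8, 5.19 to 34.3 and 97.3 to 100.3 CPM in HS3A8-high, against 228 to 285, 147 to 168 and 126 to 137 CPM in the HS3A8-low libraries. Whether these markers stand for other cells in the gate, and the part of such cells in the differences of the blood group genes, was not tested. In the comparisons with the control, 0 genes of the 11 lists passed the unblocked or the blocked edgeR test, while DESeq2 passed 13 and voom 12 for HS3A8-high and 4 and 12 for HS3A8-low.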

How the data were processed

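RNA-seq was performed on sorted mouse MEPs in 9 libraries, 3 per group. The authors deposited raw read counts of each gene for every library, with no normalization applied. The submitters' processing notes name STAR 2.5, HTSeq 0.6.1 and the build mm10, while the annotation release and strand setting are not given in the sources used here. Identifiers were joined to GENCODE M21 (GRCm38), with 34490 of 35275 matched.

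Groups were compared with edgeR 4.0.16 (quasi-likelihood test, TMM, filterByExpr) under R 4.3.3. Each fit held the libraries of the groups compared and no others, p-values were adjusted by Benjamini-Hochberg over all genes tested, and 0.05 was the threshold. CPM in the text are TMM-scaled over all 9 libraries. The methods were tested on simulated data. Alternatives were DESeq2 1.42.0, DESeq2 size factors, voom (limma 3.58.1), other count filters, all libraries in 1 fit, each library left out, the replicate block and spline corrections (5 degrees of freedom) for GC content and length.

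The replicate numbers come from the labels. Same-numbered libraries of both fractions deviated together from their group means (r = 0.325 to 0.509 across 12108 genes, against -0.469 to 0.122 for other combinations), so the numbers were taken to pair the fractions. They did not pair either fraction with the control (same number, r = -0.346 to 0.0317).

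Genes named beside the members were the 3 most similar by Pearson's r (for Aqp1 the third is not reported here), and from each of 11 lists those that passed the main test, or otherwise the 3 with the highest mean CPM. Members and lists were chosen with earlier results of these data known. Similarity used log2 CPM with a prior count of 2. Coordinates are GRCm38, promoters are RefSeq GRCm38.p6, and primer sequences are those of the study.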

Additional observations from a re-analysis of the deposited data

How the results depend on the processing

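Of 112 fits of a member under an alternative between HS3A8-high and HS3A8-low, 104 kept the direction and the side of the threshold, 7 passed it and 1 turned direction. Against the control 99 of 105 (HS3A8-high) and 96 of 105 (HS3A8-low) kept both and the others turned direction, all without a call. The number of members passing between the fractions was 0 in the main test, 1 with DESeq2, voom, the replicate block or GC and length trends removed, and 3 with block and trends together. All genes passing were 451 in the main test, 1305 with DESeq2, 1490 with voom, 1367 with the replicate block, 741 with trends removed, 1818 with both, and 748 without the libraries numbered 3, an alternative chosen after seeing the data. Leaving out 1 library gave 0 (HS3A8-low replicate 2) to 439 genes, with 42 and 53 without HS3A8-high replicates 1 and 2, and 56 and 244 without HS3A8-low replicates 1 and 3. For HS3A8-high against the control, 2 genes became 138 with DESeq2, 100 with voom, 9 without a filter, 32 with all libraries in 1 fit, 0 with the replicate block alone or with trends removed, and 0 to 5 with 1 library left out (5 without control replicate 1). For HS3A8-low against the control, 0 became 94 with DESeq2 and 287 with voom. Against the control the block changed no call of a member, and the control libraries share only a number with the fractions.

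Log2 fold changes that turned direction were small. Kel between the fractions ran from -0.0249 to 0.225 with 1 library left out. Against the control in HS3A8-high, Rhd was 0.0917 with trends removed (0.0948 with the block added) and -0.217 to 0.0294 with 1 library left out, Kel -0.161 to 0.00709, and Gypc -0.0523 with voom and -0.00323 to 0.156. In HS3A8-low, Xk was 0.0145 with trends removed, 0.0595 with the block added and -0.286 to 0.102 with 1 library left out, Rhag 0.00137 and 0.0486 with trends removed without and with the block, and Aqp1 -0.210 to 0.0847. The cause was not tested. The 7 detected members had at least 677 counts in every library, and the 0 of Icam4 is not taken as absence, since its source was not tested.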
